A study of Mus musculus with 23 samples.

Results

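The 8 transcription factors described here are Ebf1, Pax5, Tcf3, Foxo1, Lef1, Bcl11a, Ikzf1 and Id3. They were chosen by gene name as regulators of the B lineage, with earlier results of these data known. They are 8 of the 32285 genes listed in each of 11 mouse gene-expression matrices. The study asked how loss of Jarid2, a cofactor of Polycomb repressive complex 2 (PRC2), differs from loss of Ezh2, the methyltransferase of that complex, in blood stem and progenitor cells. Droplet libraries of KSL cells (c-Kit-positive, Sca1-positive, lineage-negative bone marrow cells) were sequenced with Chromium 3′ chemistry, which counts a unique molecular identifier (UMI) for each captured transcript end. Every group carries the label Mx1-Cre, Controls included. The knockouts add floxed alleles, Ezh2 fl/fl in the Ezh2 KO and Jarid2 fl/fl in the Jarid2 KO, and the exons removed are not named.

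At baseline the mice were untransplanted and 2 months old, and every genotype (Control, Jarid2 KO, Ezh2 KO) had 1 male library, replicate 1, and 1 female library, replicate 2. In the transplant experiment, CD45.2 donor KSL cells were sorted 18 weeks after 500000 donor marrow cells and 500000 CD45.1 competitor cells had been given to lethally irradiated recipients, and there were 1 Control, 2 Ezh2 KO and 2 Jarid2 KO libraries with no sex in the labels. Mx1-Cre is driven by an interferon-responsive promoter and acts in many cell types besides blood cells. Nothing in the labels says whether a library came from 1 animal or a pool, so p-values measure the spread between these libraries. The H3K27me3 samples of the series were not analysed here.

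B-cell commitment in the marrow proceeds through a small network of these factors. Ikaros (Ikzf1) and Bcl11a act early, in multipotent and lymphoid-primed cells, and the E protein E2A, encoded by Tcf3, together with Foxo1 helps to switch on Ebf1. Ebf1 in turn activates Pax5, which holds cells in the B lineage, while Lef1 is a Wnt-pathway factor of pro-B cells and Id3 is an inhibitor that binds E proteins and keeps them from DNA.

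Promoter sequences are shown for Ebf1, Pax5, Lef1, Id3 and Foxo1, whose levels moved together across the libraries. Other members did so too, such as Bcl11a and Ikzf1 (Pearson r = 0.929). The libraries differ in cell makeup, so levels that move together do not show a shared regulator. The windows run from 250 bases before to 50 bases after a RefSeq transcript start on GRCm38.p6 and are written on the gene's strand. All 8 members matched, with 13 windows. Capitals mark matches on either strand to 5 motifs: the E-protein E-box CAGGTG, the Ebf1 palindrome (TCCC and GGGA with any 2 bases between them), the Ikaros core TGGGAA, the Lef1/Tcf7 motif CTTTGA and the Foxo motif TGTTTAC. Ebf1 has windows at chr11:44617850-44618149 and chr11:44619978-44620277, both on the plus strand. Pax5 starts at chr4:44710645-44710944 on the minus strand, Id3 at chr4:136143572-136143871 on the plus strand and Foxo1 at chr3:52268087-52268386 on the plus strand. Of the 4 Lef1 windows the one at chr3:131110073-131110372, plus strand, is printed because it held 2 different motifs.
Ebf1 upstream window: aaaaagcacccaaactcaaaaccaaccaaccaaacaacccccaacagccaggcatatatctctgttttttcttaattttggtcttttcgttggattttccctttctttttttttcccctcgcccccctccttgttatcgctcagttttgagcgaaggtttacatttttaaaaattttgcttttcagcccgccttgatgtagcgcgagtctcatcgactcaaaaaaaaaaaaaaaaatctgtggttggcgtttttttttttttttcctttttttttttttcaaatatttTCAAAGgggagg
Ebf1 downstream window: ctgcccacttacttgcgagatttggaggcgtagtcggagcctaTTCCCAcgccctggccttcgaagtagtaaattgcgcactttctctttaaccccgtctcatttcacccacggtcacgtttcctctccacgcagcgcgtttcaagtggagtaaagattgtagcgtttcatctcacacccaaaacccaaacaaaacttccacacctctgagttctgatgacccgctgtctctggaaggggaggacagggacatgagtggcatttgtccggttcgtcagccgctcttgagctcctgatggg
Pax5 window: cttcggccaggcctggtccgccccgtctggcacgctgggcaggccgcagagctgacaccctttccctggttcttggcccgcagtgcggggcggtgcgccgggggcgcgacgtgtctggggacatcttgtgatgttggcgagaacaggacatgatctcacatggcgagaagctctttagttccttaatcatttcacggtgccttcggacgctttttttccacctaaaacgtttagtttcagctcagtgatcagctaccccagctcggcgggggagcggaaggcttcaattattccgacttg
Id3 window: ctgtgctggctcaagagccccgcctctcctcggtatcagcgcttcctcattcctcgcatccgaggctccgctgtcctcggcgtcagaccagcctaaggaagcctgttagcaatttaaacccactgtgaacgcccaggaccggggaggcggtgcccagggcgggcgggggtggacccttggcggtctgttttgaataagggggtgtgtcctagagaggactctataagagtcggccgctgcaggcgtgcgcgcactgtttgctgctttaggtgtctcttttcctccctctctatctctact
Foxo1 window: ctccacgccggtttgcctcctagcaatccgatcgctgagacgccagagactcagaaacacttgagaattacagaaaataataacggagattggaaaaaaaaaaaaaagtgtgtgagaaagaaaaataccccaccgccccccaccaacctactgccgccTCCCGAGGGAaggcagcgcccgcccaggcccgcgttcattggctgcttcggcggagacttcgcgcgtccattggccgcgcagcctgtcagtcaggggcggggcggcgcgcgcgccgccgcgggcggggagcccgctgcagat
Lef1 window: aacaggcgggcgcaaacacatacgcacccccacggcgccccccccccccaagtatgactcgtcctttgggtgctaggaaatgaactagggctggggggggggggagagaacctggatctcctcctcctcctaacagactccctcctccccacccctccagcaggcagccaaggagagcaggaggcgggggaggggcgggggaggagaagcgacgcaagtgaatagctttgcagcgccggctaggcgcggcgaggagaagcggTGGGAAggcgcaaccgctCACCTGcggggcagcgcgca
The Ebf1 palindrome occurred once, in the Foxo1 window, and 0.904% of all 32851 mouse windows held it. An E-box was found in the printed Lef1 window, beside an Ikaros core, against shares of 20.2% and 25.6% over all windows. Of the other Lef1 windows, 2 held 1 Ikaros core each and 1 held 2 Lef1/Tcf7 motifs. The window at chr3:131110047-131110346 overlaps the printed one, and its Ikaros core is the same site. The upstream Ebf1 window held 1 Lef1/Tcf7 motif (16.0% of windows) and the downstream one 1 Ikaros core. The Bcl11a window held 1 Ikaros core. None of the 5 motifs matched in the windows of Pax5, Id3, Tcf3 or Ikzf1, and the Foxo motif (3.65% of windows) matched in none of the 13. A match describes letters in a window and does not show that a factor binds there.

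Filtering left 73310 of 97066 barcodes, 4354 to 9208 cells per library. The smallest and largest baseline libraries held 83921210 and 126527222 kept UMIs, and those of the transplant experiment 67629053 and 111514122. The share of barcodes over the mitochondrial limit was 2.61% to 5.11% at baseline but 25.3% to 43.3% after transplantation, highest in the Control. Kit was detected in 76.6% to 88.3% of kept cells and Ly6a, which encodes Sca1, in 16.9% to 44.6%. No pair of libraries shared more than 0.392% of the smaller library's barcodes. Ezh2 transcripts stood at 185 CPM (CPM being a gene's UMIs scaled to a common library total) in the transplant Control and at 38.8 and 47.0 CPM in its Ezh2 KO libraries, a log2 change of -2.19 ± 0.13 (SE). At baseline the change was -0.33 ± 0.06 with an adjusted p of 0.0599. Jarid2 was not lower in either Jarid2 KO group. It read higher than in Control, by 0.46 ± 0.05 at baseline (edgeR adjusted p = 0.107) and by 0.52 ± 0.12 after transplantation. A 3′ tag does not check a deletion whose exons are not named, in either knockout. Cells with Y-linked UMIs and no Xist UMI made up 68.7% and 73.6% of the transplant Ezh2 KO libraries against 18.5% in the Control and 27.5% and 32.2% in Jarid2 KO, so the sex of the cells moved with genotype there. Because the programs that made the counts differed between experiments, levels were compared within an experiment.

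**Figure D1:**
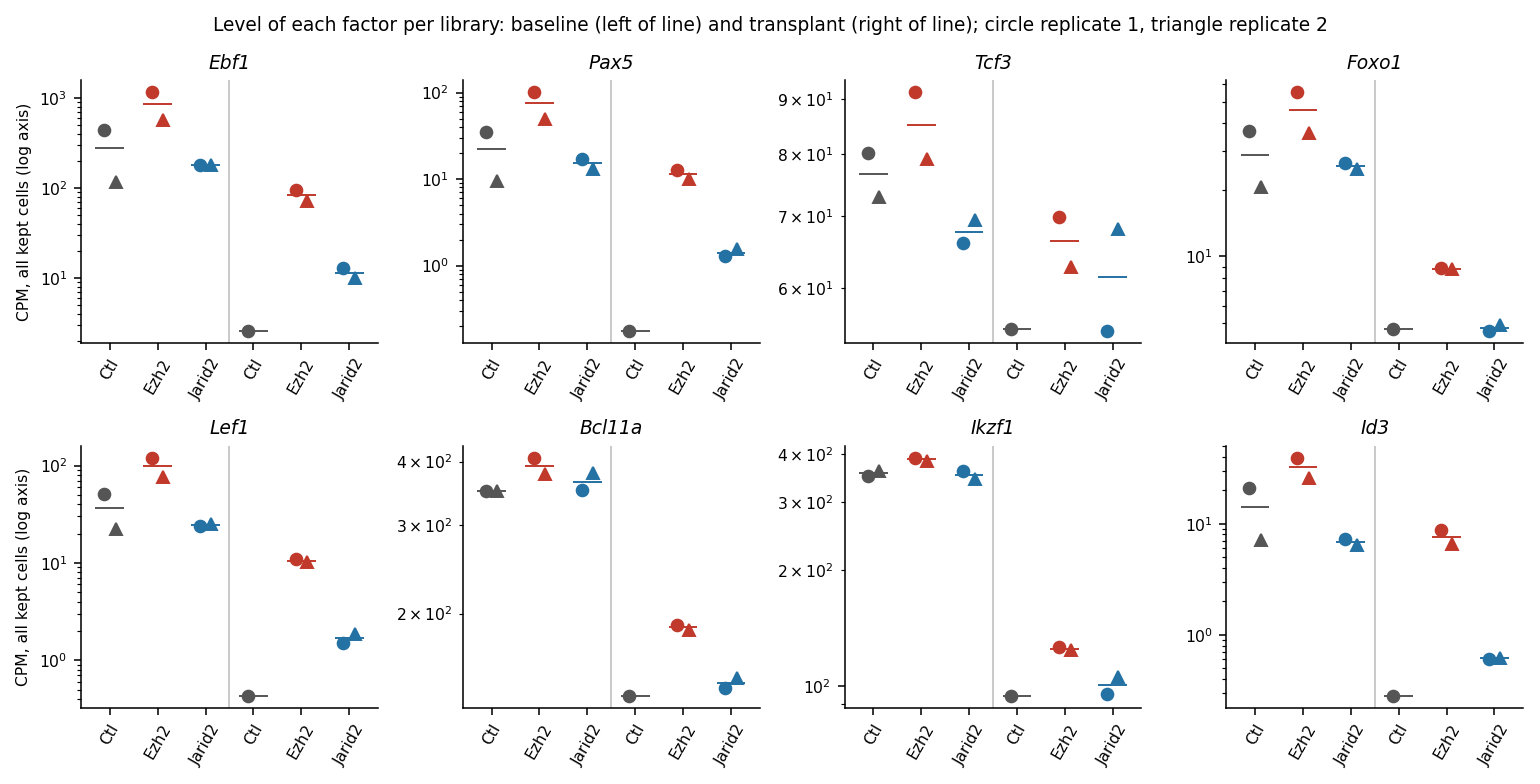
CPM of each factor over all kept cells on log axes that differ between panels, 1 point per library, with lines at group means, baseline left and transplant right of the vertical line. Ebf1, Pax5, Lef1 and Id3 were highest in the 2 Ezh2 KO libraries within either experiment, while Ikzf1 and Bcl11a varied little within an experiment.

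Ebf1, the pioneer factor of the B lineage, spanned a wider range than the broadly expressed members. Its level over all kept cells was 439 and 118 CPM in the baseline Control libraries, 1164 and 566 CPM in Ezh2 KO and 181 and 179 CPM in Jarid2 KO. After transplantation it was 2.62 CPM in the Control, 95.6 and 71.5 CPM in Ezh2 KO and 12.9 and 9.98 CPM in Jarid2 KO. Both Ezh2 KO libraries were above every other library of their experiment, and the 2 baseline Controls lay on either side of both Jarid2 KO libraries. For Ebf1 the baseline log2 change from Control to Ezh2 KO was 1.81 ± 0.42 and did not pass the threshold of 0.05 (adjusted p = 0.0839, edgeR quasi-likelihood test with Benjamini-Hochberg adjustment over all genes tested). The transplant change was 4.92 ± 0.35 (adjusted p = 0.00148), with the lone Control assumed to vary like the knockout libraries. In bulk sums of this kind, more cells of a type and more RNA per cell cannot be told apart.

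Pax5, the commitment factor that Ebf1 activates, was also highest in the Ezh2 KO libraries of each experiment. Its level was 35.3 and 9.51 CPM in baseline Controls, 101 and 49.3 CPM in Ezh2 KO and 17.2 and 13.2 CPM in Jarid2 KO. After transplantation it was 0.177 CPM in the Control, from 12 UMIs, 12.8 and 10.1 CPM in Ezh2 KO and 1.28 and 1.55 CPM in Jarid2 KO. Pax5 was the 1 member called in baseline Ezh2 KO against Control, with a log2 change of 1.92 ± 0.32 (adjusted p = 0.0486), where 3.47% of all 18177 genes tested were called. DESeq2 called 4 members in that contrast, Pax5, Foxo1, Lef1 and Id3, and 7.38% of all genes. The Pax5 call was lost without either Ezh2 KO library, with RLE normalization, with doublets kept and with no sex term. After transplantation Pax5 rose by 5.93 ± 0.32 in Ezh2 KO (adjusted p = 0.000699) and by 2.93 ± 0.35 in Jarid2 KO (adjusted p = 0.0377).

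Lef1 and Id3 were highest in the Ezh2 KO libraries, with baseline Control replicate 1 next. Lef1 stood at 50.7 and 22.1 CPM in baseline Controls, 121 and 75.9 CPM in Ezh2 KO and 23.8 and 25.0 CPM in Jarid2 KO. In the transplant libraries Lef1 was 0.429 CPM in the Control, 11.0 and 10.1 CPM in Ezh2 KO and 1.49 and 1.88 CPM in Jarid2 KO. The baseline rise of Lef1 in Ezh2 KO, 1.53 ± 0.28, missed the threshold (adjusted p = 0.0558), and the transplant rise, 4.54 ± 0.22, passed it (adjusted p = 0.000468). Id3 was at 21.0 and 7.12 CPM in baseline Controls, 39.4 and 25.8 CPM in Ezh2 KO and 7.34 and 6.43 CPM in Jarid2 KO. After transplantation Id3 was 0.281 CPM in the Control (19 UMIs), 8.76 and 6.57 CPM in Ezh2 KO and 0.606 and 0.619 CPM in Jarid2 KO. Its changes in Ezh2 KO were 1.37 ± 0.30 at baseline (adjusted p = 0.0754) and 4.69 ± 0.33 after transplantation (adjusted p = 0.00141).

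Foxo1, which acts with E2A upstream of Ebf1, differed less. It was at 36.9 and 20.7 CPM in baseline Controls, 55.3 and 36.2 CPM in Ezh2 KO and 26.5 and 24.7 CPM in Jarid2 KO, so that Control replicate 1 overlapped the Ezh2 KO range. After transplantation it was 4.70 CPM in the Control, 8.88 and 8.73 CPM in Ezh2 KO and 4.62 and 4.89 CPM in Jarid2 KO. Foxo1 rose by 0.82 ± 0.13 in transplant Ezh2 KO (adjusted p = 0.023) but not past the threshold at baseline (0.73 ± 0.17, adjusted p = 0.0823). The transplant call was lost without Ezh2 KO replicate 1.

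Tcf3, Ikzf1 and Bcl11a were expressed in every library at similar levels within an experiment, and edgeR called none of the 3 in any genotype contrast over all kept cells with the filter on low counts. Between the knockouts DESeq2 called 6 members at baseline, Tcf3 among them, at a background of 8.85%, and 7 after transplantation, Ikzf1 and Bcl11a among them, at 11.8%. Tcf3 was also called there at baseline by edgeR with no filter. Tcf3 ranged from 66.0 to 91.4 CPM at baseline and from 54.7 to 69.9 CPM after transplantation. Ikzf1 ranged from 345 to 391 CPM and from 94.1 to 126 CPM, and Bcl11a from 350 to 407 CPM and from 137 to 190 CPM, in the same order of experiments. Their changes in Ezh2 KO were between 0.16 and 0.21 at baseline and 0.19, 0.33 and 0.37 for Tcf3, Ikzf1 and Bcl11a after transplantation. After transplantation Ebf1, Pax5, Lef1 and Id3 changed by 4.54 to 5.93 on the same scale.

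**Figure D2:**
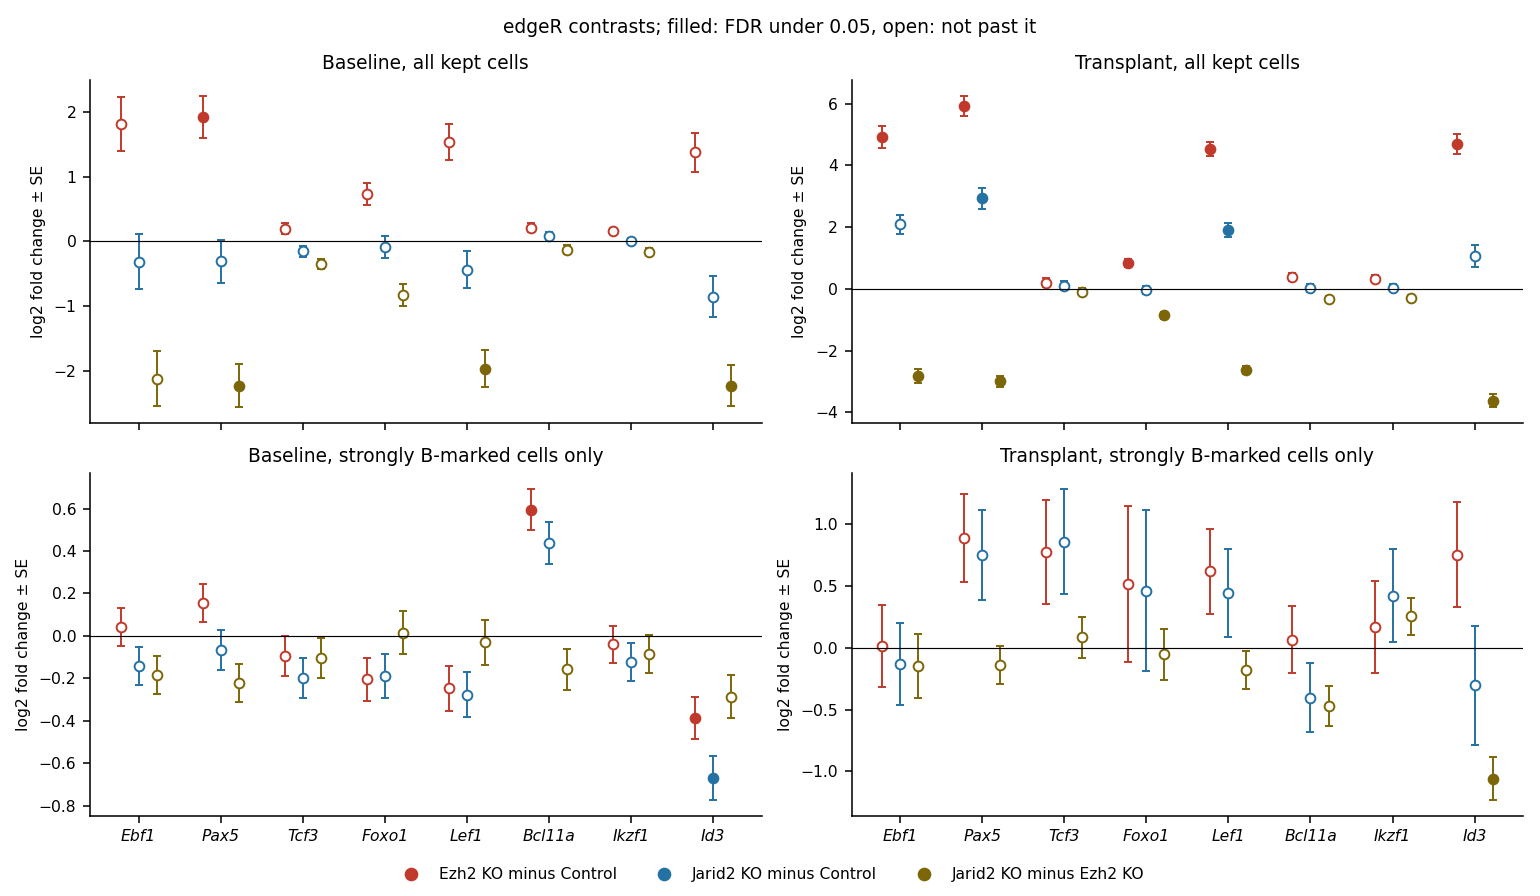
Log2 fold change ± SE of each factor for the 3 genotype contrasts in each experiment, over all kept cells (top) and within strongly B-marked cells (bottom). Axis ranges differ between panels, and the bottom panels span less than the top ones: Ebf1 reads 4.92 in the top transplant panel and 0.02 in the one below it.

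Ezh2 KO and Jarid2 KO differed from each other in both experiments. The Controls enter this contrast through the spread and, at baseline, the sex term, which were estimated over all libraries of an experiment. At baseline 3 members were lower in Jarid2 KO and none higher, with 5.91% of genes called: Pax5 (-2.23 ± 0.33, adjusted p = 0.0328), Lef1 (-1.96 ± 0.28, 0.0317) and Id3 (-2.22 ± 0.31, 0.0308). Ebf1 had a like size but a wider spread (-2.12 ± 0.43, adjusted p = 0.0547). After transplantation 5 members were lower and none higher, with 12% of genes called. They were Ebf1 (-2.83 ± 0.23), Pax5 (-3.0 ± 0.18), Lef1 (-2.62 ± 0.14), Id3 (-3.62 ± 0.21) and Foxo1 (-0.86 ± 0.10), with adjusted p between 0.000313 and 0.00458. The 3 baseline calls were lost without either Ezh2 KO library or without Jarid2 KO replicate 1. The count of members did not fall without Jarid2 KO replicate 2 or without either Control, and the share of all genes called in those fits is not given. Without the sex term no member was called there.

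Against Control, transplant Ezh2 KO had 5 members higher and none lower, at a background of 4.84%. In Jarid2 KO none of the 8 was called at baseline by edgeR, at a background of 0.0330%, and 0 by DESeq2. There 1 of the 8 had an unadjusted p under 0.05, as did 2095 of all 18177 genes. After transplantation 2 members were called in Jarid2 KO, Pax5 and Lef1 (1.91 ± 0.22, adjusted p = 0.0377), at a background of 0.336%, and Ebf1 missed the threshold at 2.08 ± 0.32 (adjusted p = 0.0783). Both knockout contrasts share the single Control library. Both Jarid2 KO calls were lost with doublets kept, with a stricter mitochondrial limit and in the cells with Y-linked UMIs and no Xist UMI. DESeq2 called 3 members in that contrast, Ebf1, Pax5 and Lef1, at a background of 1.24%, and edgeR called the same 3 when any 1 of the 4 knockout libraries was left out. In those Y-linked cells, Ezh2 KO against Control kept 3 of its calls, Ebf1 (5.09 ± 0.68), Pax5 (6.08 ± 0.77) and Lef1 (3.75 ± 0.50), with adjusted p between 0.0172 and 0.0206, where 2.26% of all genes were called. Id3 (4.54, adjusted p = 0.0572) and Foxo1 (0.86, adjusted p = 0.0674) were near the threshold in them.

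Whether a genotype change differed between experiments was tested by an interaction term over all 11 libraries. No member was called for Ezh2 KO against Control (background 0.734%), for Jarid2 KO against Control (0.0211%) or for Jarid2 KO against Ezh2 KO (4.64%). In the first of these, Lef1 had an interaction of 3.01 ± 0.57 (adjusted p = 0.0658), Id3 3.32 ± 0.66 (0.0723), Pax5 4.00 ± 0.80 (0.0745) and Ebf1 3.11 ± 0.68 (0.0924). Unadjusted p-values under 0.05 were found for 4, 4 and 1 members in the 3 contrasts, and for 2153, 1235 and 3627 of all 18938 genes. DESeq2 called 4, 3 and 1 members, at backgrounds of 1.87%, 0.428% and 5.28%. A difference between experiments in the Ezh2 KO change of these 4 members thus did not pass the edgeR threshold and passed that of DESeq2.

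The factors fell into 2 groups by the cells that held their UMIs. A cell was called B-marked with at least 2 UMIs summed over 7 B-lineage marker genes, such as Cd79a, Vpreb1 and Igll1, none of which is a member. At baseline 95.9% to 98.5% of Ebf1 UMIs lay in B-marked cells, with 98.4% to 99.2% for Pax5, 90.3% to 98.4% for Lef1 and 92.6% to 98.1% for Id3. The shares were 27.4% to 76.7% for Foxo1, 11.2% to 53.0% for Tcf3, 8.0% to 31.3% for Ikzf1 and 6.79% to 34.9% for Bcl11a. After transplantation Ebf1 and Pax5 again had most of their UMIs there (88.7% to 96.4% and 91.7% to 98.5%), while Lef1 ran from 41.4% and Id3 from 36.8% upwards, lowest in the Control. B-marked cells were 7.25% to 33.0% of baseline and 13.9% to 30.8% of transplant cells. At baseline the share of B-marked cells with an Ebf1 UMI ran from 39.9% in Control replicate 2 to 73.5% in Ezh2 KO replicate 1. Most transplant B-marked cells had no Ebf1 UMI: the share with one was 1.49% for the Control, 5.5% and 5.74% for the Jarid2 KO libraries and 26.7% and 27.7% for the Ezh2 KO libraries.

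Baseline cells that were not B-marked were placed in further classes by at least 3 megakaryocyte-erythroid UMIs, at least 10 myeloid UMIs, or at least 1 Dntt UMI, with the remaining cells last. Ebf1 was at 2318 ± 816 CPM (mean ± SD, n = 6 libraries) in B-marked cells, 20.1 ± 19.7 CPM in Dntt-marked cells, 10.6 ± 10.0 CPM in the remaining cells, 3.61 ± 3.62 CPM in myeloid-marked and 3.29 ± 3.43 CPM in megakaryocyte-erythroid-marked cells. Pax5 (197 ± 73.3 CPM), Lef1 (291 ± 71.6 CPM) and Id3 (97.3 ± 32.3 CPM) were likewise highest in B-marked cells and at most 0.895, 2.87 and 1.02 CPM on average in any other class. Foxo1 was highest there too (101 ± 25.3 CPM), followed by the remaining cells at 22.6 ± 1.44 CPM. Tcf3 was at 125 ± 23.4 CPM in B-marked and 86.3 ± 7.47 CPM in megakaryocyte-erythroid-marked cells, and at 59.2 to 66.1 CPM on average in the others.

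Ikzf1 and Bcl11a had another order, with the Dntt-marked cells first. Dntt encodes terminal deoxynucleotidyl transferase, which adds bases at antigen-receptor joints and is expressed in lymphoid-primed cells. At baseline 59.6% to 78.6% of cells with an Ebf1 UMI also had Dntt UMIs, so Dntt was not limited to cells lacking this B-lineage factor. Ikzf1 was at 517 ± 33.4 CPM in Dntt-marked cells, 348 ± 20.7 CPM in B-marked cells and lowest in megakaryocyte-erythroid-marked cells (273 ± 14.5 CPM). Bcl11a was at 451 ± 29.3 CPM in Dntt-marked cells, 363 ± 16.2 CPM in the remaining and 360 ± 47.2 CPM in B-marked cells, and lowest in myeloid-marked cells (278 ± 13.2 CPM). These classes are ranges cut from marker UMIs. They were not compared after transplantation, where most cells passed the myeloid threshold. In every transplant library the B-marked cells were deeper than the myeloid-marked ones. Their medians were 14368 to 23806 UMIs against 11599 to 15974. The part of depth in passing the B-marked threshold of 2 UMIs there was not tested.

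**Figure D3:**
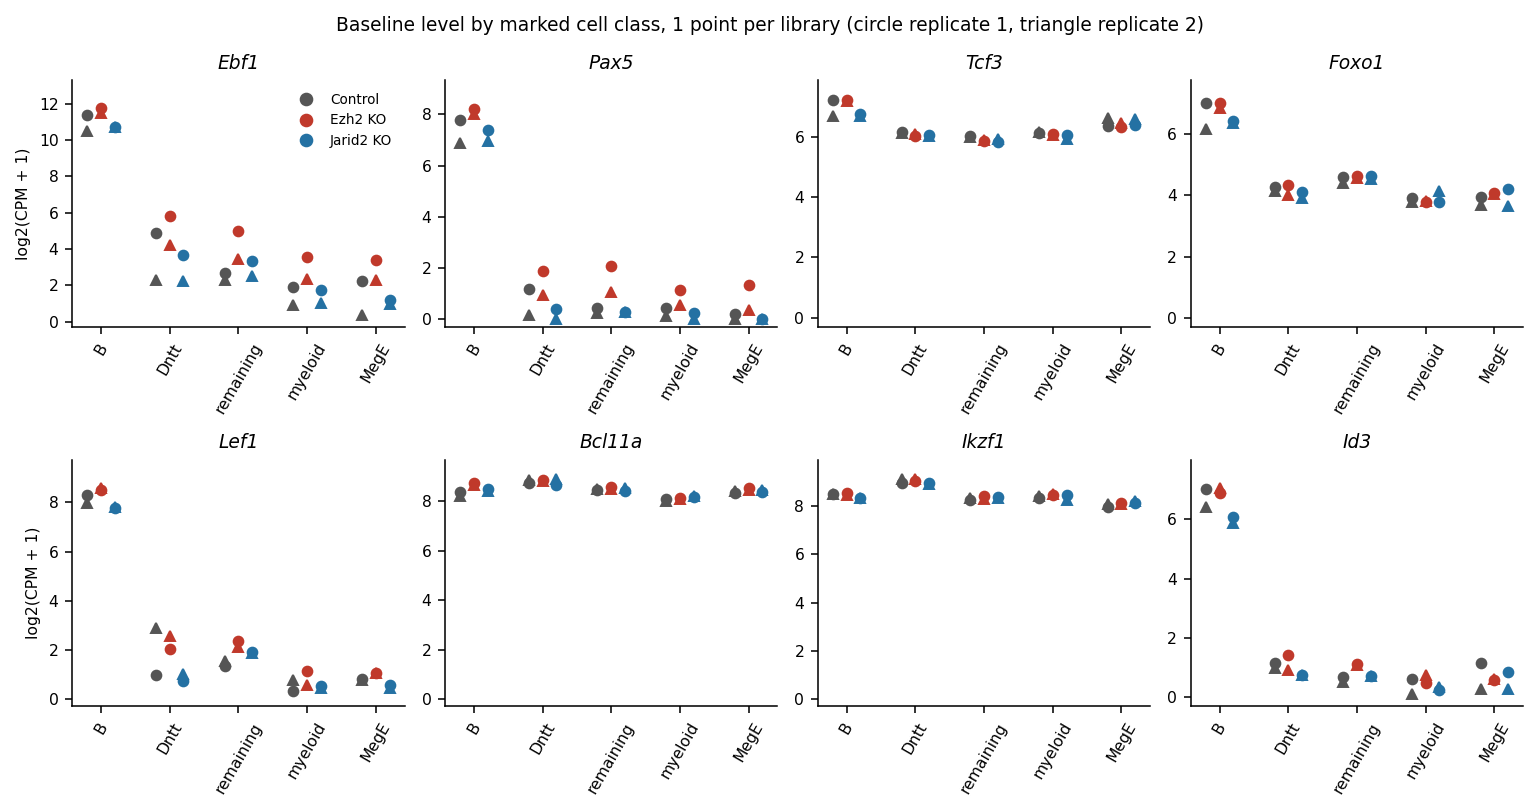
Baseline log2(CPM + 1) of each factor in the B-marked (B), Dntt-marked (Dntt), remaining, myeloid-marked (myeloid) and megakaryocyte-erythroid-marked (MegE) cells, 1 point per library. Ebf1, Pax5, Lef1, Id3, Foxo1 and Tcf3 are highest in B-marked cells in every library, and Ikzf1 and Bcl11a in Dntt-marked cells.

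The share of B-marked cells moved with genotype, so the members were also read within such cells. Cells with at least 10 UMIs over the same 7 markers were called strongly B-marked, a threshold added after the data had been seen. They were 7.08% and 2.47% of baseline Control cells, 21.5% and 12.2% of Ezh2 KO and 3.31% and 3.83% of Jarid2 KO. After transplantation they were 0.115% of Control cells (5 of 4354, exact binomial 95% interval 0.0373% to 0.268%), 6.52% and 4.31% of Ezh2 KO and 0.750% and 1.05% of Jarid2 KO. Both Ezh2 KO libraries exceeded all others of their experiment, and the exact permutation p of 0.33 is the smallest that 2 libraries against 2, or 2 against 1, allow. These cells held 93.8% to 96.8% of all Ebf1 UMIs at baseline. Of the 7 markers, Cd79b was less confined to them: they held 28.6% to 84.8% of its baseline UMIs, against 92.0% to 99.0% for Cd79a. In the transplant Control they held 1.01% of Cd79b and 78.0% of Cd79a UMIs. A cell can pass the B-marked threshold of 2 UMIs on Cd79b alone, and how many did was not counted.

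Within strongly B-marked cells Ebf1 was at 5228 and 5607 CPM in baseline Controls, 5676 and 4999 CPM in Ezh2 KO and 4145 and 5095 CPM in Jarid2 KO. The Ezh2 KO libraries lay on both sides of the Controls, and both Jarid2 KO libraries lay below both Controls. The log2 change from Control to Ezh2 KO was 0.04 ± 0.09 for Ebf1 and 0.16 ± 0.09 for Pax5 (adjusted p = 0.861 and 0.383), against 1.81 and 1.92 over all cells. After transplantation Ebf1 was 1855 CPM in the 5 Control cells, 1692 and 1536 CPM in Ezh2 KO and 1455 and 953 CPM in Jarid2 KO. Ebf1 was detected in 93.4% to 99.4% of strongly B-marked cells at baseline, at a median of 8805.5 to 14607 UMIs per cell. In megakaryocyte-erythroid-marked cells, which should lack it, it was detected in 0.536% to 16.5%, at a median of 15351 to 21206 UMIs.

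**Figure D4:**
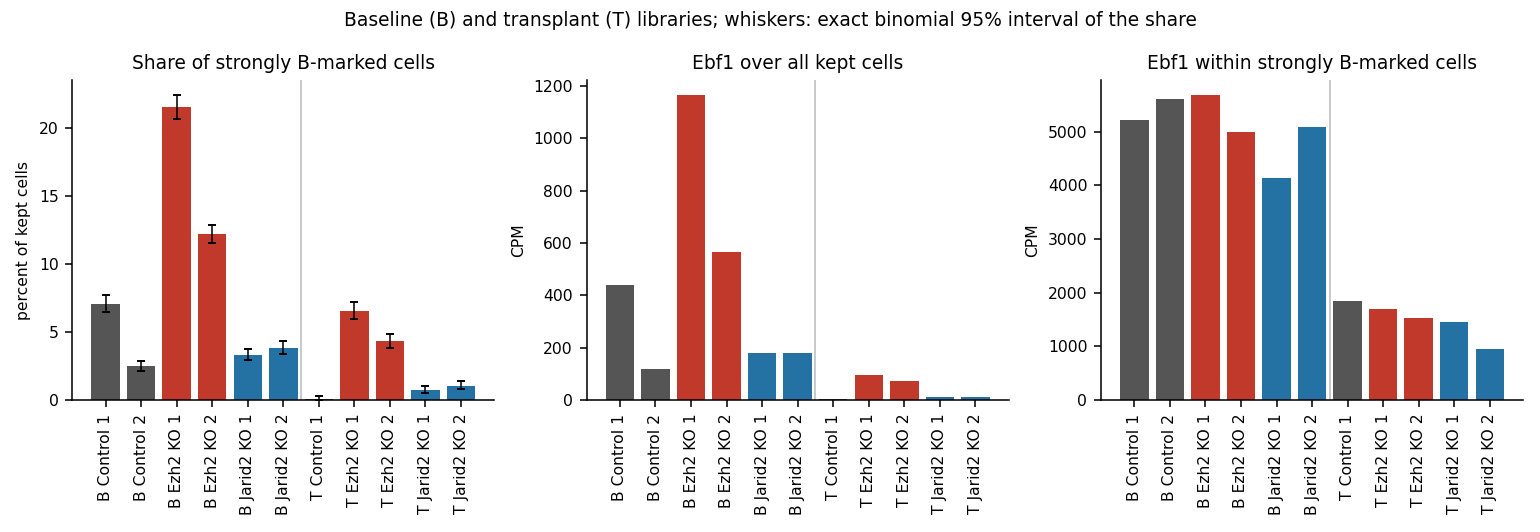
Share of strongly B-marked cells with exact binomial 95% intervals (left), Ebf1 CPM over all kept cells (middle) and Ebf1 CPM within strongly B-marked cells (right), 1 bar per library. The left and middle panels put both Ezh2 KO libraries highest in each experiment, while baseline Ebf1 in the right panel stays between 4145 and 5676 CPM.

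Some members did differ within strongly B-marked cells. These cells also differed between genotypes in other genes. Ighm was at 3265 and 3437 CPM in baseline Controls, 1220 and 959 CPM in Ezh2 KO and 9035 and 7513 CPM in Jarid2 KO. Igll1 was at 1002 and 1068, 1249 and 1263, and 800 and 850 CPM in the same order. The part of that makeup in the baseline differences below was not tested. Bcl11a was at 342 and 276 CPM in baseline Controls, 454 and 439 CPM in Ezh2 KO and 414 and 373 CPM in Jarid2 KO, so both Controls were below all 4 knockout libraries. Bcl11a rose by 0.60 ± 0.10 in Ezh2 KO (adjusted p = 0.00397). Id3 was at 255 and 326 CPM in Controls, 196 and 228 CPM in Ezh2 KO and 164 and 176 CPM in Jarid2 KO. Id3 was lower than in Control by log2 changes of -0.39 ± 0.10 in Ezh2 KO (adjusted p = 0.0411) and -0.67 ± 0.10 in Jarid2 KO (0.0309), so in Ezh2 KO its direction was opposite to that over all cells. The members called were thus 2 of 8, 1 of 8 and, between the knockouts, 0 of 8 by edgeR, at backgrounds of 7.22%, 0.311% and 8.93%. Between the knockouts DESeq2 also called 0. There 2 members had an unadjusted p under 0.05, as did 2633 of all 11903 genes. Without Control replicate 2 the adjusted p of Id3 was 0.365 in Ezh2 KO and 0.102 in Jarid2 KO, and that of Bcl11a in Ezh2 KO was 0.0642. The Id3 calls were also lost without Control replicate 1 (0.118, Ezh2 KO) and without Jarid2 KO replicate 2 (0.145, Jarid2 KO).

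After transplantation no member was called against Control within strongly B-marked cells by edgeR or DESeq2, at backgrounds of 0.0226% and 0.0677%. An unadjusted p under 0.05 was found for 1 member in Ezh2 KO and 0 in Jarid2 KO, and for 655 and 705 of all 8859 genes. The Control had only 5 such cells. Between the knockouts Id3 was the 1 member called, at a background of 6.54%. It stood at 152 and 152 CPM in Ezh2 KO and 67.0 and 55.6 CPM in Jarid2 KO, a log2 change of -1.06 ± 0.17 (adjusted p = 0.00976). The strongly B-marked cells of these libraries also differed in other genes: Ighm was at 828 and 839 CPM in Ezh2 KO against 45308 and 43645 CPM in Jarid2 KO, Igll1 at 1093 and 1051 against 536 and 636 CPM, and Ebf1 was detected in 100% and 99.6% against 78.9% and 77.4% of cells. The part of that makeup in the Id3 difference was not tested. Ebf1 changed by -0.15 ± 0.26 and Pax5 by -0.14 ± 0.15 in that contrast, against -2.83 and -3.0 over all cells. Jarid2 KO had 38 and 53 such cells, and the Id3 call was lost without Ezh2 KO replicate 1 and with DESeq2.

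With all B-marked cells left out, the members with a genotype call were Ebf1, Pax5 and, between the transplant knockouts, Id3. The 2 baseline calls of Ebf1 were not made over all cells. At baseline Ebf1 (1.84 ± 0.15, adjusted p = 0.0326) and Pax5 (2.38 ± 0.28, 0.0445) were called higher in Ezh2 KO than Control, 2 of 8 at a background of 0.548%. Ebf1 then stood at 10.6 and 2.65 CPM in Controls and 33.9 and 10.7 CPM in Ezh2 KO, so replicate 1 of Control and replicate 2 of Ezh2 KO were about level. In megakaryocyte-erythroid-marked cells of the same 4 libraries Ebf1 was at 3.74, 0.277, 9.62 and 3.82 CPM, so Ebf1 UMIs in cells that should lack it moved with the result. Their part in it was not tested. Between the knockouts Ebf1 (-1.86 ± 0.15) and Pax5 (-3.21 ± 0.31) were lower in Jarid2 KO, 2 of 8 at 0.949%, and edgeR called none in Jarid2 KO against Control (0 under an unadjusted 0.05; background 0.130%). DESeq2 was not run on these cells. Pax5 was then at no more than 2.46 CPM in any library.

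After transplantation and without B-marked cells, Ebf1 alone was called higher in Ezh2 KO than in Control (3.85 ± 0.40, adjusted p = 0.0059; 1 of 8 at 3.66%). Its levels were 0.367 CPM in the Control, 5.37 and 5.83 CPM in Ezh2 KO and 1.60 and 1.04 CPM in Jarid2 KO. The groups stood in the same order as over all cells. Ebf1 UMIs in cells that should lack it are not given here, and their part in this result was not tested. Nor was that of B-lineage cells below the B-marked threshold. The same limit holds for Ebf1 calls without B-marked cells within the Dntt classes below. Ebf1, Pax5 and Id3 were lower in Jarid2 KO than Ezh2 KO, by -2.04, -2.84 and -2.15, 3 of 8 at 10.3%. In Jarid2 KO against Control edgeR called no member (background 0.322%). There 1 of 8 had an unadjusted p under 0.05, and the share of all genes under it is not given. Foxo1 and Lef1, called over all cells, were not called here.

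Cells with and without a Dntt UMI divided the members further. Strongly B-marked cells held Dntt too, at 697 to 1100 CPM at baseline, so the class with Dntt UMIs included B-lineage cells. The share of cells with Dntt UMIs was itself highest in the Ezh2 KO libraries: 57.3% and 43.6% against 34.6% and 28.1% in Control and 29.3% and 25.4% in Jarid2 KO at baseline, and 61.6% and 59.1% against 23.3% and 29.4% and 28.9% after transplantation. All 8 members were higher in baseline cells with Dntt UMIs, with the library as a block, where 53.1% of genes were called, 25.3% higher and 27.8% lower. All 8 were higher after transplantation too, where 55.1% of genes were called, 26.7% higher and 28.4% lower. The count stayed at 8 of 8 in both when cells were thinned to 5000 UMIs, which removes the difference in depth between the classes. Cells below 5000 UMIs, 273 to 721 per library, were left out there, and the classes were set again from the thinned counts. The share of all genes called in the thinned fits is not given, so that count has no background to be read against.

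The size of the difference separated the members. Ebf1 stood at 373 to 1902 CPM in baseline cells with Dntt UMIs and 7.83 to 93.4 CPM in those without, a log2 difference of 5.36 ± 0.24. Lef1 differed by 5.00 ± 0.17, Pax5 by 4.84 ± 0.19 and Id3 by 4.82 ± 0.18, and Foxo1 by 1.16 ± 0.15. Ikzf1 (0.65 ± 0.03), Tcf3 (0.54 ± 0.08) and Bcl11a (0.35 ± 0.02) differed least, with no overlap for Ikzf1 between 446 to 502 CPM with and 292 to 313 CPM without Dntt. After transplantation the differences were 4.02 ± 0.21 for Ebf1, 4.05 ± 0.19 for Pax5, 3.59 ± 0.16 for Id3, 2.89 ± 0.31 for Lef1, 0.91 ± 0.04 for Bcl11a, 0.85 ± 0.14 for Foxo1, 0.73 ± 0.02 for Ikzf1 and 0.31 ± 0.03 for Tcf3.

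**Figure D5:**
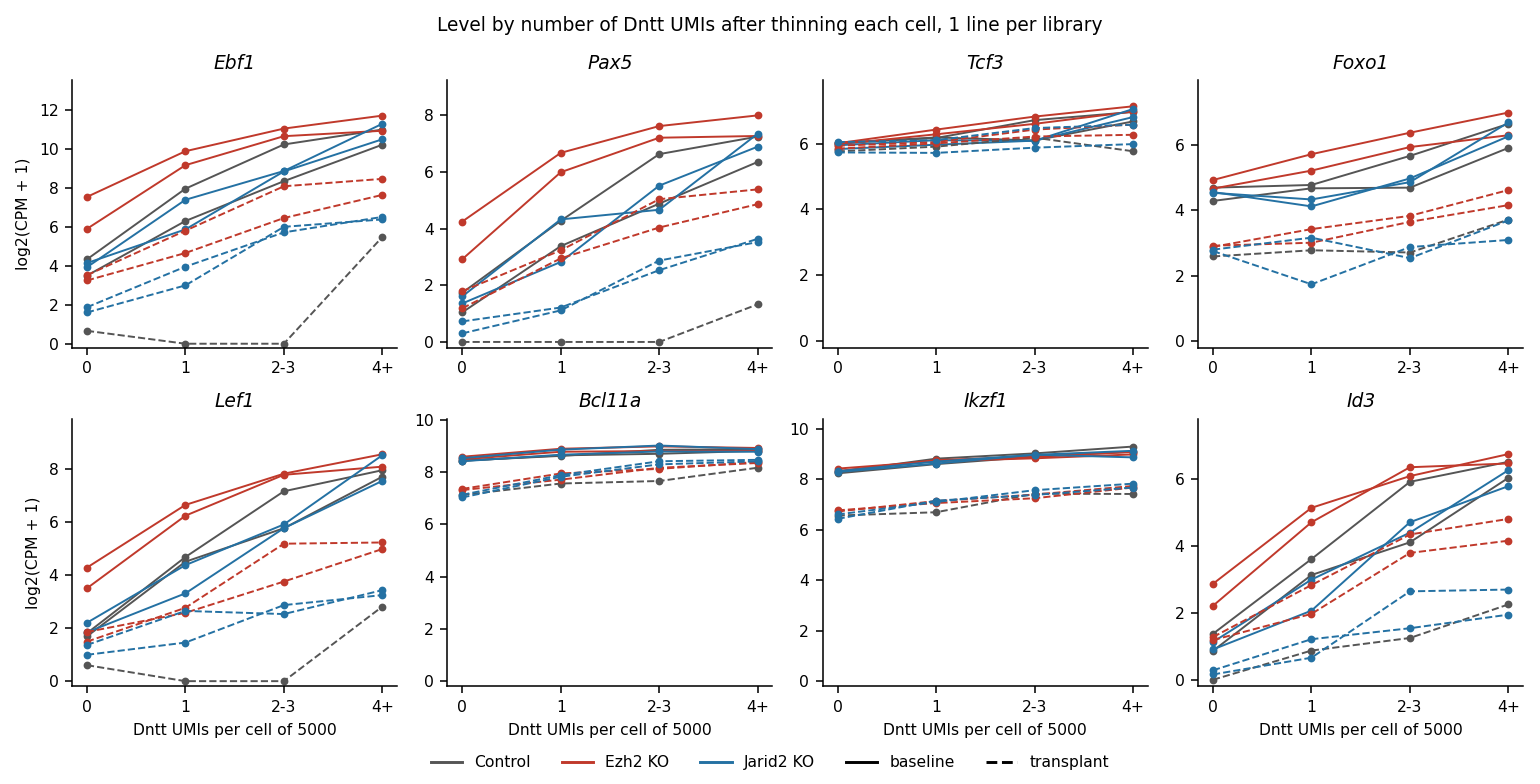
Log2(CPM + 1) of each factor against the number of Dntt UMIs per cell after thinning to 5000 UMIs (0, 1, 2 to 3, 4 or more), 1 line per library, solid at baseline and dashed after transplantation. Baseline Ebf1 climbs at every step in each library, for instance from 19.1 to 248, 1203 and 2049 CPM in Control replicate 1, while Ikzf1 in the same library goes from 300 to 545 CPM.

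Leaving out B-marked cells changed this picture for most of the B-marked group. At baseline Ebf1 still differed by 0.92 ± 0.23 (adjusted p = 0.00639), Ikzf1 by 0.70 ± 0.03 and Bcl11a by 0.31 ± 0.02, and Foxo1 turned to -0.33 ± 0.05 (adjusted p = 0.000417), 4 of 8 called at a background of 49.5%. Pax5 (0.19 ± 0.32), Lef1 (0.04 ± 0.36), Id3 (0.39 ± 0.19) and Tcf3 (0.09 ± 0.04) were not called. After transplantation Ebf1 differed by 1.81 ± 0.18, Id3 by 0.88 ± 0.29, Bcl11a by 0.82 ± 0.04, Ikzf1 by 0.73 ± 0.03 and Tcf3 by 0.21 ± 0.03, and Lef1 turned to -1.13 ± 0.37 (adjusted p = 0.0183), 6 of 8 at 52.1%. Lef1 then rested on few UMIs, 1 to 22 per library in cells with Dntt and 12 to 39 in those without. Pax5 was at -0.17 ± 0.41 and was not called. Ikzf1 and Bcl11a were the members whose difference by Dntt kept its size in both experiments without B-marked cells.

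Genotype was then compared within each Dntt class. The number of Dntt UMIs within the class with Dntt differed between libraries. After transplantation and thinning, the Control had 240, 145 and 265 cells with 1, 2 to 3 and 4 or more. Ezh2 KO had 619, 547 and 1621 in replicate 1 and 684, 558 and 1419 in replicate 2. Jarid2 KO had 344, 190 and 400, and 303, 209 and 489. The part of this in the genotype differences was not tested. In baseline cells with Dntt, 7 members had an unadjusted p under 0.05 in Ezh2 KO against Control, as did 4507 of all 15695 genes. DESeq2 called 0 members there. Pax5 was the 1 member called by edgeR (1.31 ± 0.28, adjusted p = 0.0354, background 10.8%). Without B-marked cells Ebf1 was called in its place (1.80% of genes), and the Pax5 call was lost without either Ezh2 KO library. Jarid2 KO against Control had 0 by edgeR (background 0.159%) and by DESeq2. There 2 members had an unadjusted p under 0.05, as did 2164 of all 15695 genes. Jarid2 KO was lower than Ezh2 KO for 5 of 8 (background 14.3%): Id3 (-1.55 ± 0.28), Pax5 (-1.54 ± 0.29), Lef1 (-1.26 ± 0.26), Foxo1 (-0.89 ± 0.21) and Tcf3 (-0.44 ± 0.08). DESeq2 called 3 of these, Pax5, Tcf3 and Id3 (background 9.30%), and without B-marked cells the calls were Ebf1 and Pax5, 2 of 8 at 2.21%. None was called without either Ezh2 KO library or without Jarid2 KO replicate 1. In baseline cells without Dntt no member was called by edgeR in the 3 contrasts (backgrounds 0.0580%, 0.0812% and 0.267%). An unadjusted p under 0.05 was found for 4, 1 and 4 members, and for 1803, 1694 and 2026 of all 17244 genes. DESeq2 called 4, 0 and 2 members there (its backgrounds for the first and the last were 1.04% and 1.24%). Ebf1 differed there by 2.52 ± 0.27 between Ezh2 KO and Control with an adjusted p of 0.0599.

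After transplantation 4 of 8 were higher in Ezh2 KO than Control in cells with Dntt (background 3.05%). They were Pax5 (4.67 ± 0.32), Lef1 (4.30 ± 0.26), Id3 (3.86 ± 0.33) and Ebf1 (3.68 ± 0.30). Ebf1 was at 10.1 CPM in the Control, 156 and 116 CPM in Ezh2 KO and 35.2 and 29.9 CPM in Jarid2 KO. Jarid2 KO was lower than Ezh2 KO for the same 4 and Foxo1, 5 of 8 at 7.40%. Against Control edgeR called 0 of 8 in Jarid2 KO at 0.128%, and DESeq2 called 3 at 0.553%. There 3 had an unadjusted p under 0.05, as did 1072 of all 14108 genes. Without B-marked cells Ebf1 was the 1 member called in each of the first 2 of these contrasts, at 2.41% and 5.67%. In cells without Dntt, Ebf1, Pax5 and Id3 were called higher in Ezh2 KO than Control, 3 of 8 at 1.92%. DESeq2 called Ebf1 and Pax5 of these (background 2.60%), Ebf1 alone was called without B-marked cells (2.11%), and the Pax5 and Id3 calls were lost without either Ezh2 KO library. The Control had 3 Ebf1, 0 Pax5 and 5 Id3 UMIs there, so no fold is given: Ebf1 was at 0.0595 CPM against 5.02 and 11.6 CPM, Pax5 at 0 against 0.826 and 1.39 CPM and Id3 at 0.0991 against 0.826 and 0.898 CPM. For a count of 0 the limit of 3 UMIs corresponds to 0.0595 CPM in that library. Ebf1 (-1.84 ± 0.36) and Id3 (-2.12 ± 0.36) were lower in Jarid2 KO than Ezh2 KO in those cells, 2 of 8 at 7.10% (Pax5 and Id3 without B-marked cells, at 6.90%). The Id3 call was lost without any 1 of the 4 knockout libraries and the Ebf1 call without Jarid2 KO replicate 2. No member was called in Jarid2 KO against Control there by edgeR (background 0.241%), and DESeq2 called 1 at 0.932%. An unadjusted p under 0.05 was found for 2 members and for 1243 of all 14910 genes.

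Whether the genotype change itself differed between the Dntt classes was tested with an interaction. At baseline no member was called in the 3 contrasts by edgeR (backgrounds 0.0512%, 0.0228% and 0.256%), and DESeq2 called 0 in each. An unadjusted p under 0.05 was found for 2, 1 and 3 members, and for 1257, 590 and 1919 of all 17566 genes. After transplantation Bcl11a was called in Ezh2 KO against Control (0.22 ± 0.04, adjusted p = 0.00112; 1 of 8 at 3.0%) and in Jarid2 KO against Control (0.32 ± 0.04, adjusted p = 9e-06; 1 of 8 at 2.50%). Its level without Dntt was 118 CPM in the Control, 121 and 123 CPM in Ezh2 KO and 105 and 112 CPM in Jarid2 KO, and with Dntt 194, 237, 232, 223 and 242 CPM in the same order. Bcl11a was thus lowest in the Control among cells with Dntt only. Foxo1 (-0.76 ± 0.16, adjusted p = 0.00263) and Lef1 (-1.48 ± 0.37, 0.0108) were called between the knockouts, 2 of 8 at 5.51%. DESeq2 called 0 members in the first and the last of these contrasts and gave no adjusted p in the second. Without B-marked cells no member was called in the first, and Bcl11a was the 1 called in the others, at 2.12% and 4.33%. Foxo1 with Dntt was 12 and 11 CPM in Ezh2 KO against 5.10 and 7.15 CPM in Jarid2 KO, and without Dntt 4.29 and 5.68 against 4.40 and 3.99 CPM.

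Surface CD135 (Flt3), measured with an antibody in the baseline cells, gave a readout of lymphoid-primed progenitors that does not come from transcripts. Each library was divided into 3 equal groups by CD135 signal, and the top and bottom groups were compared. In the top group 52.0% to 80.2% of cells had Dntt UMIs, against 6.50% to 45.4% in the bottom group. Ikzf1 (0.88 ± 0.04) and Bcl11a (0.42 ± 0.03) were higher in the top group. Ebf1 (-2.59 ± 0.43), Pax5 (-2.46 ± 0.43), Lef1 (-3.52 ± 0.45), Id3 (-2.75 ± 0.41), Foxo1 (-1.07 ± 0.21) and Tcf3 (-0.31 ± 0.09) were lower. All 8 were called, where 51.8% of genes were, 2 higher at a background of 24.8% and 6 lower at 27.0%.

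Ebf1 showed how far these groups differ. It was at 195, 43.8, 219, 45.6, 69.3 and 28.9 CPM in the top group and at 568, 144, 2278, 1196, 208 and 211 CPM in the bottom group of Control 1 and 2, Ezh2 KO 1 and 2 and Jarid2 KO 1 and 2. Every library was higher in its bottom group. B-marked cells were 5.96% to 18.4% of the top and 7.57% to 49.6% of the bottom groups, so they moved with the result. Without them 3 of 8 were called at a background of 53.0%, Ikzf1 at 0.93 ± 0.05, Bcl11a at 0.47 ± 0.03 and Foxo1 at -0.29 ± 0.07, and Ebf1 read 0.49 ± 0.25 (adjusted p = 0.134).

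Genes with the pattern most like each member were named by Pearson r of log2 CPM centred within each experiment, over 11 libraries and 7858 genes with a mean of at least 10 CPM in both. These are descriptions over libraries that share depth and cell makeup. Ebf1 was most like Vpreb3 (0.991), Igll1 (0.989) and Cd79a (0.987), genes of the pre-B-cell receptor and its assembly. Pax5 was most like Blnk (0.994), Igll1 (0.992) and Vpreb1 (0.990), Lef1 like Vpreb1 (0.996), Igll1 (0.995) and Vpreb3 (0.993), and Id3 like Blnk (0.982), Vpreb1 (0.981) and Sdc4 (0.981). Foxo1 was most like Ccnd3 (0.975), a cyclin D gene, Chchd10 (0.973) and Blnk (0.971). Tcf3 was most like Tarbp1 (0.934), H3f3a (0.933) and Mapre1 (0.931), Ikzf1 like Bmi1 (0.967), Stx6 (0.965) and 0610010K14Rik (0.963), and Bcl11a like Lars2 (0.962), Hmgn1 (0.960) and Auts2 (0.956). Among the members, Pax5 and Lef1 were closest (0.991) and Tcf3 and Bcl11a least alike (0.617).

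Other genes of the pathway were read from lists fixed by name. The lists were chosen with earlier results of these data known, so their counts are not an independent test. Of 20 pre-B genes, 6 were higher and none lower in baseline Ezh2 KO than Control, where 3.47% of all genes were called, with a median log2 change of 1.60 against -0.00 over all genes (Bst1 1.93 ± 0.29, Il7r 1.60 ± 0.25, Cd79b 1.31 ± 0.20 and Dntt 0.74 ± 0.07 have the smallest adjusted p). After transplantation 17 were higher and none lower, where 4.84% of all genes were called, with a median of 3.40 against 0.01 over all genes and Vpreb1 at 4.53 ± 0.26. In transplant Jarid2 KO the 1 pre-B gene of 20 called was Ighm, at 2.34 ± 0.24 (adjusted p = 0.024), where 0.336% of all genes were called. Of 20 other lymphoid regulators, 5 were higher and none lower in Ezh2 KO in each experiment, among them Spib (2.07 ± 0.26 and 3.08 ± 0.52), Irf4 (1.01 ± 0.14 and 3.91 ± 0.53) and Bach2 (0.57 ± 0.09 and 0.78 ± 0.13). Summed CPM of 9 B-lineage markers was 579 to 1191 in baseline Controls, 1332 to 2179 in Ezh2 KO and 1109 to 1247 in Jarid2 KO, and 132, 518 to 649 and 454 to 639 after transplantation, with no marker of that list at 0 in any library. In transplant Jarid2 KO, Ighm alone made up 388 and 552 CPM of those sums, against 193 and 166 CPM in Ezh2 KO, while Cd79a was at 6.64 and 11.5 CPM against 88.1 and 68.0 CPM.

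Relatives of the members and regulators of other fates were read in the same way. Of 17 relatives tested at baseline, Id1, an inhibitor of E proteins like Id3, was the 1 called in Ezh2 KO (2.31 ± 0.15, adjusted p = 0.0135), where 3.47% of all genes were called. After transplantation Id1 rose by 1.36 ± 0.21 (adjusted p = 0.0197) and Bcl11b, the T-lineage relative of Bcl11a, fell by 2.73 ± 0.33 on the log2 scale (adjusted p = 0.00867), 1 higher and 1 lower of 15 where 4.84% of all genes were called. Among 18 regulators of other fates, after transplantation 2 were higher in Ezh2 KO (Gfi1b 0.83 ± 0.12, Notch1 0.64 ± 0.11) and 2 lower (Bcl11b and Gata3, -0.80 ± 0.13).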

How the data were processed

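Gene-expression libraries of 11 KSL samples were read as UMI counts per gene and barcode, which the authors deposited as filtered matrices. Per the file headers they were made with cellranger 7.2.0 (baseline) and 6.1.2 (transplant), and the submitters' processing notes name Cell Ranger 3.1.0, Seurat 3.0, Partek and mm10. Whether intronic reads were counted is not given in the sources used here. Antibody tag counts, also as deposited, gave CD135. CUT&Tag data were not analysed here.

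Cells with at least 1000 UMIs, at least 500 genes and at most 10% mitochondrial UMIs were kept. Barcodes with the highest Scrublet scores (scanpy 1.11.5) were then removed at 0.8% per 1000 barcodes, because its automatic threshold marked 0 to 176 cells per library. Counts were summed per library and cell class and tested with edgeR 4.0.16 (TMM, filterByExpr, quasi-likelihood, Benjamini-Hochberg over all genes, threshold 0.05) in R 4.3.3, with DESeq2 1.42.0 as an alternative. SE is the absolute log2 change divided by the square root of F. Baseline fits held genotype and sex, which is also the replicate number. Transplant fits held genotype, and Dntt and CD135 fits held the library as a block. In simulated data every gene had the same spread (dispersion), and 100 genes were changed 2-fold. The baseline Ezh2 KO comparison, among 18177 genes, recovered 86.7% of these changes, and the transplant one, among 15758 genes, 57.7%. The spread of the members themselves was not simulated, so these shares do not give the power for them.

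The 8 members were always named. From each gene list, genes past the threshold were named, at most 4 per contrast by smallest adjusted p, and for each member the 3 genes of highest r. Members and lists were chosen with earlier results of these data known. The marker sum for B-marked cells includes 1 gene that is not reported here. Symbols shared by 78 genes were kept apart by gene ID.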

Additional observations from a re-analysis of the deposited data

Results flagged for a closer look

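After transplantation, 4 genotype changes differed between cells with and without Dntt UMIs by an interaction test in edgeR. Bcl11a differed by 0.22 ± 0.04 on the log2 scale for Ezh2 KO against Control (adjusted p = 0.00112) and by 0.32 ± 0.04 for Jarid2 KO against Control (adjusted p = 9e-06), and these share the single Control library. Foxo1 differed by -0.76 ± 0.16 (adjusted p = 0.00263) and Lef1 by -1.48 ± 0.37 (adjusted p = 0.0108) for Jarid2 KO against Ezh2 KO. Without B-marked cells, 1 of these 4, Bcl11a in Jarid2 KO against Control, stayed past the threshold, and Bcl11a was called instead of Foxo1 and Lef1 in Jarid2 KO against Ezh2 KO (0.21 ± 0.04, adjusted p = 0.000121). DESeq2 called 0 members in the contrasts of Ezh2 KO with Control and of the knockouts with each other, and gave no adjusted p for any of the 8 in Jarid2 KO against Control.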

How the results depend on the processing

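Counts are members called of 8, in the order Ezh2 KO against Control, Jarid2 KO against Control and Jarid2 KO against Ezh2 KO. The share of all genes called is not given for RLE normalization, no filter, doublets kept, no sex term and 5% mitochondrial UMIs. It is not given with 1 library left out either, so those counts have no background to be read against. At baseline they were 1, 0 and 3. The first became 4 with DESeq2, 0 with RLE normalization, 3 with no filter on low counts, 0 with doublets kept, 2 without B-marked cells, 0 with no sex term and 2 in strongly B-marked cells. The second became 1 in strongly B-marked cells, and the third 6 with DESeq2, 6 with no filter, 0 with no sex term and 0 in strongly B-marked cells. Leaving out 1 library gave 0 to 5, 0 to 0 and 0 to 5. After transplantation the counts were 5, 2 and 5. They became 1, 0 and 3 without B-marked cells and 0, 0 and 1 in strongly B-marked cells. The first was 3 and the second 0 in male cells, and the second was 0 with doublets kept and 0 at 5% mitochondrial UMIs but 3 with DESeq2 and 3 with no filter. The third was 7 with DESeq2. Leaving out 1 library gave 4 to 5, 3 to 3 and 5 to 5, and without the Control only the third could be fitted. The interaction of experiment and genotype gave 4, 3 and 1 with DESeq2 and 4 for the first with no filter, against 0, with 0 to 4, 0 to 0 and 0 to 1 when 1 library was left out.

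Within baseline cells with Dntt, 1, 0 and 5 became 0 (first) and 3 (the third) with DESeq2 and 2 (the third) without B-marked cells, and leaving out 1 library gave 0 to 6, 0 to 1 and 0 to 6. Without Dntt, 0, 0 and 0 became 4 (first) and 2 (the third) with DESeq2 and 1 (first) without B-marked cells, with 0 to 3, 0 to 0 and 1 to 2. The share of all genes called in that fit without B-marked cells is not given, so its count of 1 has no background. Within transplant cells with Dntt, 4, 0 and 5 became 1 (first) and 1 (the third) without B-marked cells and 3 (second) with DESeq2, with 4 to 4, 0 to 3 and 4 to 5. Without Dntt, 3, 0 and 2 became 1 (first) without B-marked cells, and 2 (first) and 1 (second) with DESeq2, with 1 to 3, 0 to 1 and 1 to 2. The transplant interaction of genotype and Dntt, at 1, 1 and 2, became 0 (first) and 1 (the third, Bcl11a, in place of Foxo1 and Lef1) without B-marked cells and 0, 0 and 0 with DESeq2, which gave no adjusted p for the second.

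The Dntt comparison, 8 in both experiments, became 4 at baseline without B-marked cells, and the CD135 comparison, 8, became 3, with 8 to 8, 8 to 8 and 7 to 8 when 1 library was left out. Among values called in either setting, 6 changed sign: Id3 at -0.39 in baseline Ezh2 KO (strongly B-marked cells) and, without B-marked cells, baseline Foxo1 at -0.33, transplant Pax5 at -0.17 and Lef1 at -1.13 by Dntt, and Ebf1 at 0.49 and Id3 at 0.049 by CD135. Another 112 values, called in neither setting, also changed sign, among them in strongly B-marked baseline cells of Ezh2 KO against Control Lef1 at -0.25, Foxo1 at -0.20, Tcf3 at -0.10 and Ikzf1 at -0.04, and in transplant Jarid2 KO Id3 at -0.30 and Ebf1 at -0.13. The causes were not tested. The baseline sex term is a replicate block. Over the 4 transplant knockout libraries a replicate block gave 5 members called, as without it, and 2 pairs cannot show whether the numbers pair the samples. Depth limits Ebf1, Pax5, Lef1 and Id3 in the transplant Control, which had 177, 12, 29 and 19 UMIs.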

Other observations

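Strongly B-marked cells differed between genotypes in Ighm, the heavy-chain constant gene. Ighm stood at 3265 and 3437 CPM in baseline Controls, 1220 and 959 CPM in Ezh2 KO and 9035 and 7513 CPM in Jarid2 KO. The log2 change against Control was -1.57 ± 0.09 in Ezh2 KO (adjusted p = 5.55e-06) and 1.39 ± 0.09 in Jarid2 KO (adjusted p = 0.000195, edgeR). After transplantation Ighm was 828 and 839 CPM in Ezh2 KO and 45308 and 43645 CPM in Jarid2 KO, a log2 change of 6.01 ± 0.25 between them (adjusted p = 3.03e-06), while the Control had 5 such cells. Ms4a1, which encodes CD20 of later B cells, was at 4.16 and 4.24 CPM in those Ezh2 KO libraries and 70.6 and 77.2 CPM in Jarid2 KO. Dntt was at 1190 and 1124 CPM against 783 and 725 CPM. Id1 was 3.97 ± 0.31 higher on the log2 scale in strongly B-marked baseline cells of Ezh2 KO than of Control (adjusted p = 3.15e-05).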
